A study of Mus musculus and Rattus norvegicus with 30 samples.

Results

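The enzymes that carry glucose to pyruvate and lactate, the sugar-phosphate branch and the enzymes that build and break glycogen were followed in heart muscle cells of the rat and in mouse hearts. The set was given by name, as 34 genes, and each name was matched to the gene names of the deposited tables without regard to case. In rat 33 of the 34 names were found among 32545 gene entries, on 35 entries because Pkm and Pfkfb4 each had a second entry. Rat Pgd was not analysed here. In mouse all 34 names were found among 54307 gene entries, on 35 entries because Aldoa had a second entry. A filter on low counts passed 34 of the 35 rat entries, all but the second entry of Pfkfb4. It passed 33 of the 35 mouse entries, all but Aldoc and the second entry of Aldoa.

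The rat samples were neonatal ventricular myocytes from pups aged 3 days, plated after a step that removes fibroblasts by their faster attachment and grown with bromodeoxyuridine, which holds back dividing cells. They carried 25 nM of siRNA against ERRalpha and ERRgamma (the knockdown) or a scramble siRNA, and were given 10 µM of 915 or its solvent DMSO for 24 hours. Each of these 4 groups holds 3 libraries. The protocol text also lists siRNA against Esrrb and E2f1, while the genotype labels name ERRalpha and ERRgamma only. ERRalpha and ERRgamma are estrogen-related receptors, nuclear receptors without a known natural hormone that switch on genes of energy metabolism, and 915 and 332 are described by the submitters as agonists of these receptors. The mouse samples were left ventricles of wild-type animals. Some had transverse aortic constriction (TAC), surgery that tightens the aortic arch so that the left ventricle pumps against a raised load, and the others a sham operation. The mice were injected with 332 or given vehicle for 6 weeks. Vehicle was given to 3 sham and 5 TAC hearts, and 332 to 5 sham and 5 TAC hearts. The labels give no sex, age or strain for the mice, and do not say whether the rat replicates came from separate isolations, so p-values there measure the spread between these samples, which may be technical.

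Glycolysis splits glucose into pyruvate in the cytosol, and lactate dehydrogenase then interconverts pyruvate and lactate. Many of its steps are served by several genes whose products differ between tissues, such as the muscle forms Pfkm, Pgam2, Eno3 and Pygm. The adult heart takes most of its energy from fatty acids and also takes up lactate, whereas the fetal, newborn and overloaded heart relies more on glucose. Glycogen, the branched store of glucose in muscle, is built by glycogen synthase and the branching enzyme and released by glycogen phosphorylase.

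Library totals ran from 12013379 to 18315341 counts in rat and from 11375894 to 16599899 in mouse. The targets that the genotype labels name read low in all 6 knockdown libraries. Esrra stood at 12.7 to 21.9 CPM (counts scaled to library size with TMM factors) across the 6 knockdown libraries and at 169 to 229 CPM across the 6 scramble libraries, and Esrrg at 16.1 to 25.1 CPM and 130.3 to 302 CPM. Esrrb, named in the protocol text only, was also lower in the knockdown libraries, at 0.665 to 1.78 CPM against 3.01 to 6.97 CPM, without overlap. All 8 cardiomyocyte markers (Myh6, Myh7, Actc1, Tnnt2, Tnni3, Ryr2, Pln and Mb) were tested in both species, and their sum was 15573 to 17163 CPM in the scramble vehicle cells and 54405 to 56523 CPM in the sham vehicle hearts. Fibroblast markers also gave 13720 to 14768 CPM in the scramble vehicle cells. In bulk RNA, fewer cells of a type and less RNA per cell cannot be told apart. The mouse libraries fall into 2 sets, inferred from the sample index and lane in their deposited file names. Replicates 1 to 3 of each group belong to the first set and replicates 4 and 5 to the second. Sham vehicle hearts were therefore sequenced in the first set only, and all mouse fits hold a term for the set. Within the first set these names give lane 3 for the sham 332 hearts and lane 4 for all other hearts. No term covers this lane difference, which cannot be told apart there from the sham 332 group. It enters every mouse comparison that uses the sham 332 hearts.

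Levels were first compared between genes per length. In the scramble vehicle rat cells the highest of the 35 entries was Aldoa, the aldolase of muscle, at 1068 ± 37.2 FPKM (SD, n = 3), ahead of Gapdh at 1031 ± 30.4 FPKM, 2 neighbours that differed by less than the sum of their spreads. Ldhb followed at 584 ± 39.3 FPKM, Ldha at 541 ± 20.5 FPKM and Pkm, the last step to pyruvate, at 529 ± 9.93 FPKM, and the ranges of neighbours in this order overlapped. In the sham vehicle hearts Gapdh stood first at 995 ± 68.3 TPM (SD, n = 3), Aldoa second at 808 ± 25.3 TPM and Ldhb next at 643 ± 38.6 TPM. Ldha stood far lower there, at 92.7 ± 10.4 TPM. FPKM and TPM were normalised separately and come from different species and preparations, so no level was compared across them.

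The share of each gene within its enzyme family shows which forms led the message in these samples, not which enzymes were used. Ldhb, the heart form of lactate dehydrogenase, made up 51.9% of the LDH message per length in scramble vehicle cells and 87.4% in sham vehicle hearts. Eno1, the widely expressed enolase, held 94.3% of enolase message in the rat cells, and Eno3, the muscle enolase, held 83.6% in the mouse hearts. Likewise Pgam1 held 87.7% of phosphoglycerate mutase message in the rat cells, and Pgam2, the muscle form, held 94.9% in the mouse hearts. Pfkp, the platelet form of phosphofructokinase, held 47.7% in the rat cells, while Pfkm, the muscle form, held 79.5% in the mouse hearts. Species, age and preparation all differ between these values. The mouse shares sum TPM over transcripts of unlike length and can differ from shares of counts. In sham vehicle hearts the means in counts were 384 CPM for Ldha and 1100 CPM for Ldhb, a smaller gap than per length.

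**Figure D1:**
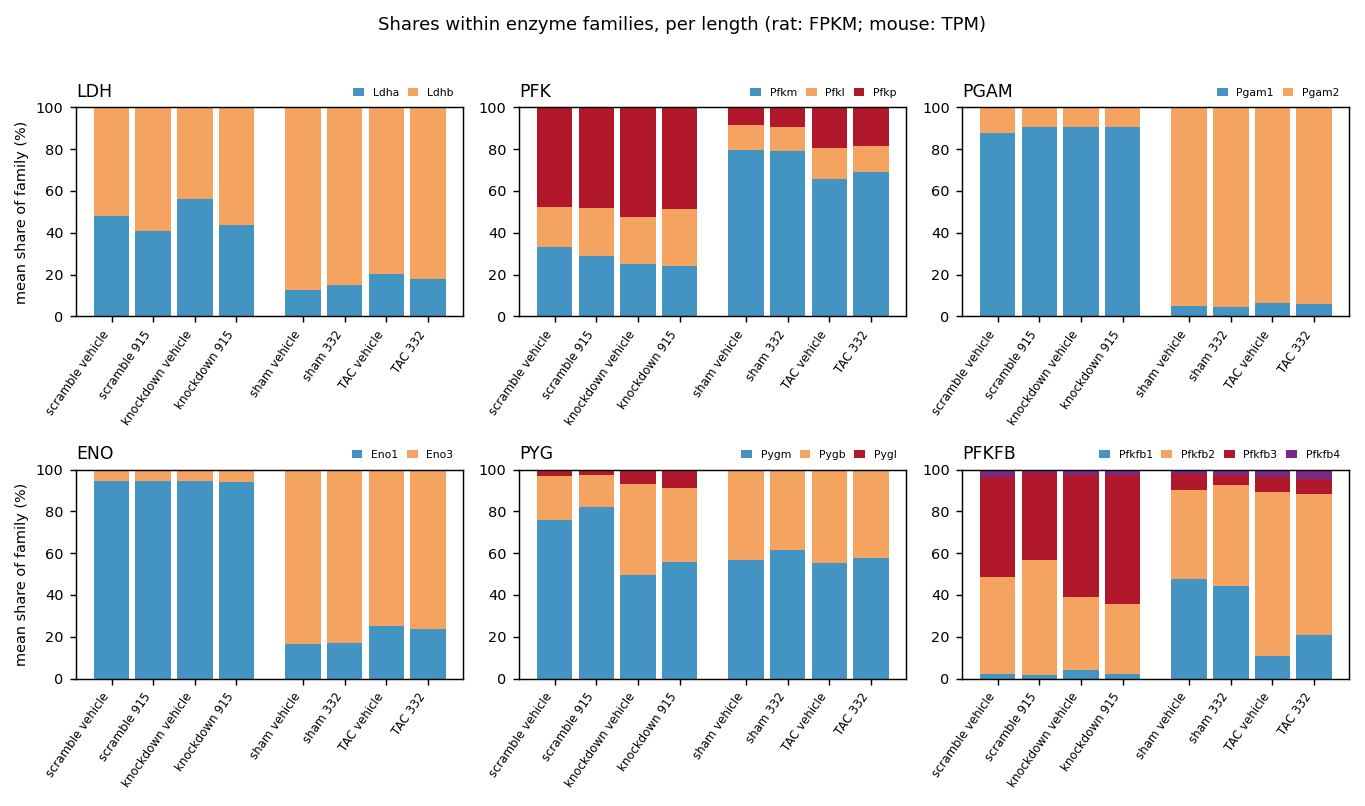
Mean share of each gene (%, vertical axis) in the summed message of its family per length, in the 4 rat groups (FPKM) and the 4 mouse groups (TPM), as stacked bars. Eno1 and Pgam1 fill most of the rat bars and Eno3 and Pgam2 most of the mouse bars, and the Pygm share is 75.8% in scramble vehicle and 49.4% in knockdown vehicle cells.

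Sequences just around the start of 3 members are shown because these genes lead the results that follow: Ldha and Ldhb, whose balance moved in every treatment but 332, and Pygm, which fell most with the knockdown among members with more than 20 CPM. Each run is a mouse RefSeq window (GRCm38.p6) from 250 bases before to 50 bases after the annotated start, 300 bases on the gene's own strand. Ldha lies at chr7:46845554-46845853 on the plus strand, Ldhb at chr6:142507908-142508207 on the minus strand and Pygm at chr19:6384158-6384457 on the plus strand. Capitals mark every match, on either strand, to ACGTG, the core letters bound by hypoxia-inducible factors and by some E-box factors, and to AAGGTCA, the half-site letters read by the estrogen-related receptors.
Ldha: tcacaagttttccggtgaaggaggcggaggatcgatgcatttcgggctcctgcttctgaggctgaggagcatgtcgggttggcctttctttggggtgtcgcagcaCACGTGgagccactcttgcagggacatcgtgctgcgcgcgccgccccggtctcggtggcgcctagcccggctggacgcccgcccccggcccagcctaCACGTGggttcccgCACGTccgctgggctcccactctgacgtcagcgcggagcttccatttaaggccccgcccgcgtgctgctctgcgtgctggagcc
Ldhb: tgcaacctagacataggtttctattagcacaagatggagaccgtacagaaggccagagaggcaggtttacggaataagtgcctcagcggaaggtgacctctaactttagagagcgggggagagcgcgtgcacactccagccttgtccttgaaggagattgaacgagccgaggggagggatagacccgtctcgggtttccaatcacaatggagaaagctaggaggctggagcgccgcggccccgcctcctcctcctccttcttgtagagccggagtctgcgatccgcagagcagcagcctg
Pygm: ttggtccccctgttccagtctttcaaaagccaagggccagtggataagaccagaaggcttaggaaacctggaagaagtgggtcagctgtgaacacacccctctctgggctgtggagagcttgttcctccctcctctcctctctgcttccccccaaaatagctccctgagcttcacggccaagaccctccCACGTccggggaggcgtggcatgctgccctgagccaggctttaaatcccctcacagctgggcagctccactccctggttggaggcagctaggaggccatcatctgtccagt
The Ldha window shown holds 5 matches to ACGTG counted on both strands, the Pygm window 1 and the Ldhb window 0, and none of the 3 windows shown holds AAGGTCA. RefSeq gives Ldha 2 start windows, and the other, at chr7:46846832-46847131 and not shown, holds 0 matches to either motif.

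Over all members, ACGTG was found in at least 1 start window of 16 of 34 genes, 47.1%, and in 21.8% of all 27025 genes with such windows. CACGTG, the E-box that holds ACGTG on both strands, was found in 5 of 34 genes (Gyg, Ldha, Pfkfb2, Pfkfb3 and Pfkm), 14.7% against 8.09% of all genes. AAGGTCA was found in 3 of 34 (Eno1, Pfkfb1 and Tpi1), 8.82% against 5.38%, and the longer form TNAAGGTCA, which contains it, in 1 of 34 (Tpi1), 2.94% against 1.43%. A gene with more start windows has more chances to hold a match. Per window, ACGTG was in 38.5% of 52 member windows and 19.6% of all 32851. CACGTG was in 9.62% against 7.15%, AAGGTCA in 5.77% against 4.72% and TNAAGGTCA in 1.92% against 1.28%. These are letter matches in mouse windows only. They are a description, not binding sites, and no rat window was used.

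In vehicle-treated rat cells the knockdown came with lower message of most glycolysis, lactate and glycogen synthesis entries. Only 1 of 6 glycogen breakdown and 1 of 4 PFKFB entries fell, and no pentose phosphate entry did. Of 34 entries tested, 18 fell and 1 rose (adjusted p below 0.05 in edgeR's quasi-likelihood test, Benjamini-Hochberg over all 15181 genes), while 20.4% of all genes tested were called in either direction, 12.7% lower and 7.75% higher. The median log2 change was -0.24 over the entries and 0.01 over all genes. Under 915 the knockdown lowered 23 and raised 2 of the 34, where 33.9% of all genes were called, 17.7% lower and 16.2% higher, with a median of -0.33 against 0.03. 915 in scramble cells raised 15 and lowered 3, against a background of 42.2% called, 21.5% higher and 20.6% lower, with a median of 0.12 against 0.01. 915 in knockdown cells raised 9 and lowered 5, against 35.7% called, 18.1% higher and 17.6% lower, and its median was -0.01, with all genes centred on 0. The share called was near the background for 915 in knockdown cells. The comparisons share groups: the knockdown in vehicle and 915 in scramble cells both rest on the scramble vehicle libraries.

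**Figure D2:**
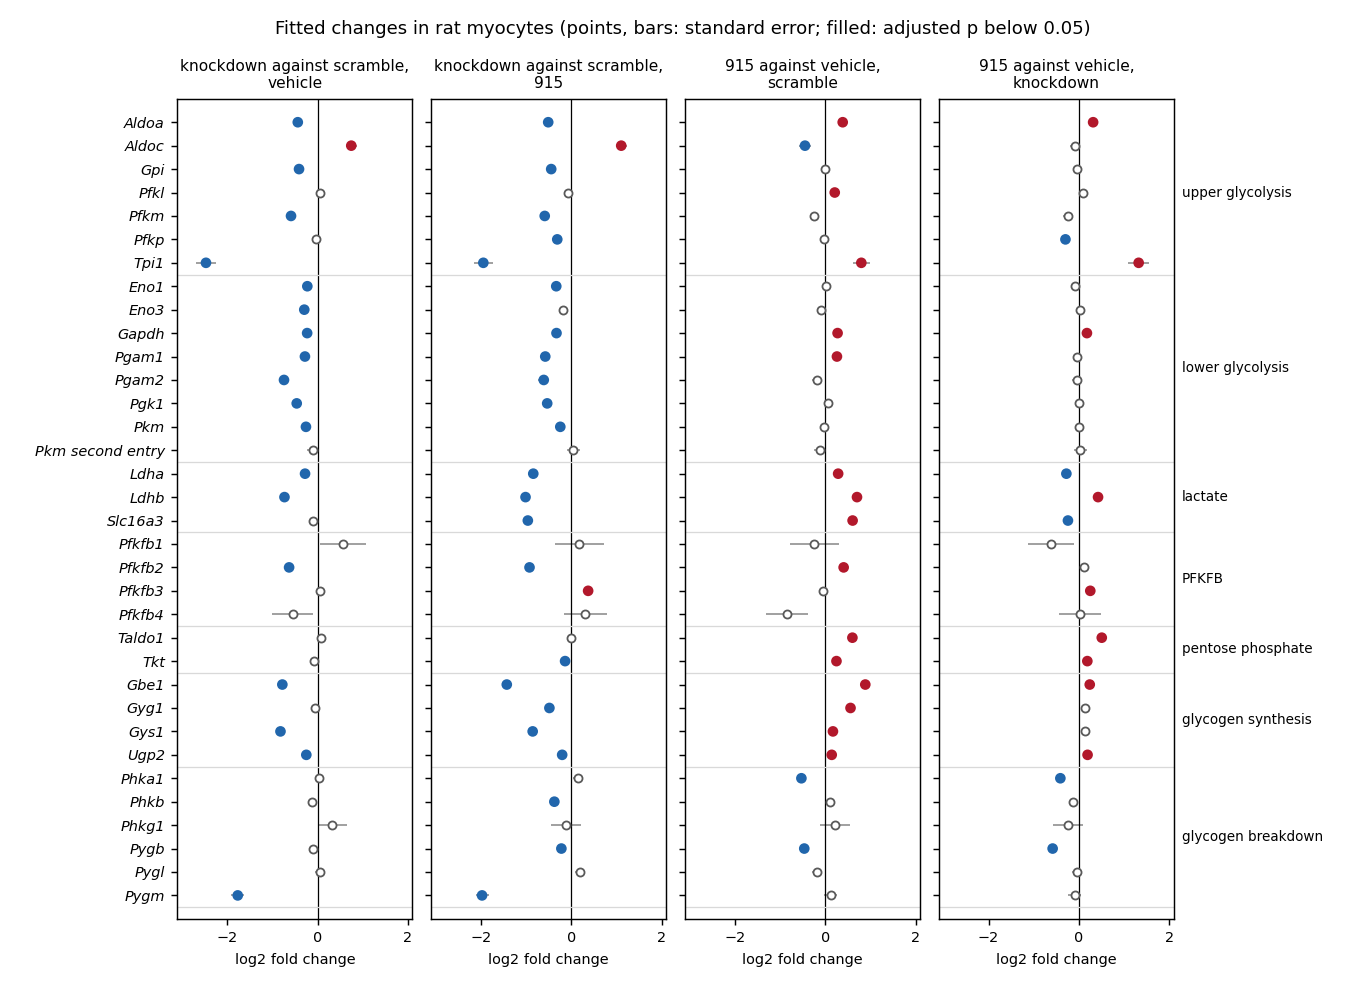
Fitted log2 fold change (horizontal axis) of each tested rat entry in 4 comparisons, by role, with the standard error as a bar; filled points passed an adjusted p of 0.05 (red higher, blue lower). In the knockdown panels 18 and 23 of the 34 points are filled blue, and in the 915 panel of scramble cells 15 are filled red.

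Ldha and Ldhb moved with both the knockdown and 915. Slc16a3, a lactate carrier, moved with 915 and passed for the knockdown only under 915. Here and below, errors of log2 changes are standard errors of the fit. Ldha encodes the form of lactate dehydrogenase that predominates in skeletal muscle (ENSRNOG00000013009, chromosome 1, 102900286 to 102909707 in rn6). Its levels were 917, 841 and 867 CPM in the 3 scramble vehicle libraries and 708, 739.6 and 718 CPM with the knockdown, and with 915 they were 1047, 1048 and 1107 CPM in scramble and 601, 559 and 625 CPM in knockdown cells. The 4 groups did not overlap, and 915 stood above vehicle in scramble cells and below it in knockdown cells. 915 changed Ldha by 0.29 ± 0.05 (SE) on the log2 scale in scramble cells and by -0.28 ± 0.05 in knockdown cells, with adjusted p of 5.60e-05 and 0.000111.

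Ldhb encodes the form that predominates in heart (ENSRNOG00000013000, chromosome 4, 176701983 to 176720012). It was at 833, 726 and 814 CPM in scramble vehicle and 488, 468 and 472 CPM in knockdown vehicle libraries, and at 1272, 1273 and 1320.1 CPM in scramble and 623, 596 and 695 CPM in knockdown libraries under 915. Every library with 915 lay above every vehicle library of the same siRNA, and the knockdown libraries under 915 lay below the scramble vehicle libraries. The knockdown lowered Ldhb, with log2 changes of -0.73 ± 0.06 in vehicle and -1.01 ± 0.06 under 915, and 915 raised it by 0.70 ± 0.06 in scramble and 0.42 ± 0.06 in knockdown cells (adjusted p 3.57e-10, 4.46e-13, 3.68e-10 and 2.43e-06).

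Slc16a3 encodes MCT4, a carrier that exports lactate from glycolytic cells (ENSRNOG00000036677, chromosome 10, 110138586 to 110148358). Its levels were 48.4, 45.8 and 41.8 CPM in scramble vehicle, 45.2, 41.4 and 39.3 CPM in knockdown vehicle, 67.9, 66.7 and 72.5 CPM in scramble 915 and 34.4, 35.1 and 36.7 CPM in knockdown 915 libraries. The vehicle groups overlapped, and the 915 groups lay on either side of them. 915 raised it in scramble cells by 0.61 ± 0.07 (adjusted p 2.04e-07) and lowered it in knockdown cells, at -0.24 ± 0.07 (adjusted p 0.0123). The second call was lost without knockdown vehicle replicate 1, at a log2 change of -0.19 and an adjusted p of 0.0865.

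The difference between the 915 effects, knockdown minus scramble, was tested as its own contrast. It passed for 7 of 34 members, all lower, where 3.73% of all genes passed, 1.99% lower and 1.74% higher. Slc16a3 differed by -0.85 ± 0.10, Gbe1, the glycogen branching enzyme, by -0.65 ± 0.09 and Ldha by -0.57 ± 0.07, with adjusted p of 1.79e-05, 0.000109 and 2.89e-05. Gyg1, the protein primer of glycogen, differed by -0.43 ± 0.09 and Pgam1 by -0.30 ± 0.07. All 3 lactate genes were among the 7, and no member of the PFKFB, pentose phosphate or glycogen breakdown groups was. The other 2 calls, Ldhb at -0.28 ± 0.08 and Pfkp at -0.27 ± 0.07, lay close to the threshold at adjusted p of 0.0497 and 0.0276. Leaving out a library ended the Ldhb call in 10 of 12 cases, where its adjusted p rose to between 0.0658 and 0.160, all but knockdown 915 replicate 3 and scramble vehicle replicate 1. It ended the Pfkp call in 8 of 12 cases, at adjusted p of 0.0558 to 0.0990, all but knockdown 915 replicates 1 and 3, scramble 915 replicate 1 and scramble vehicle replicate 1.

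**Figure D3:**
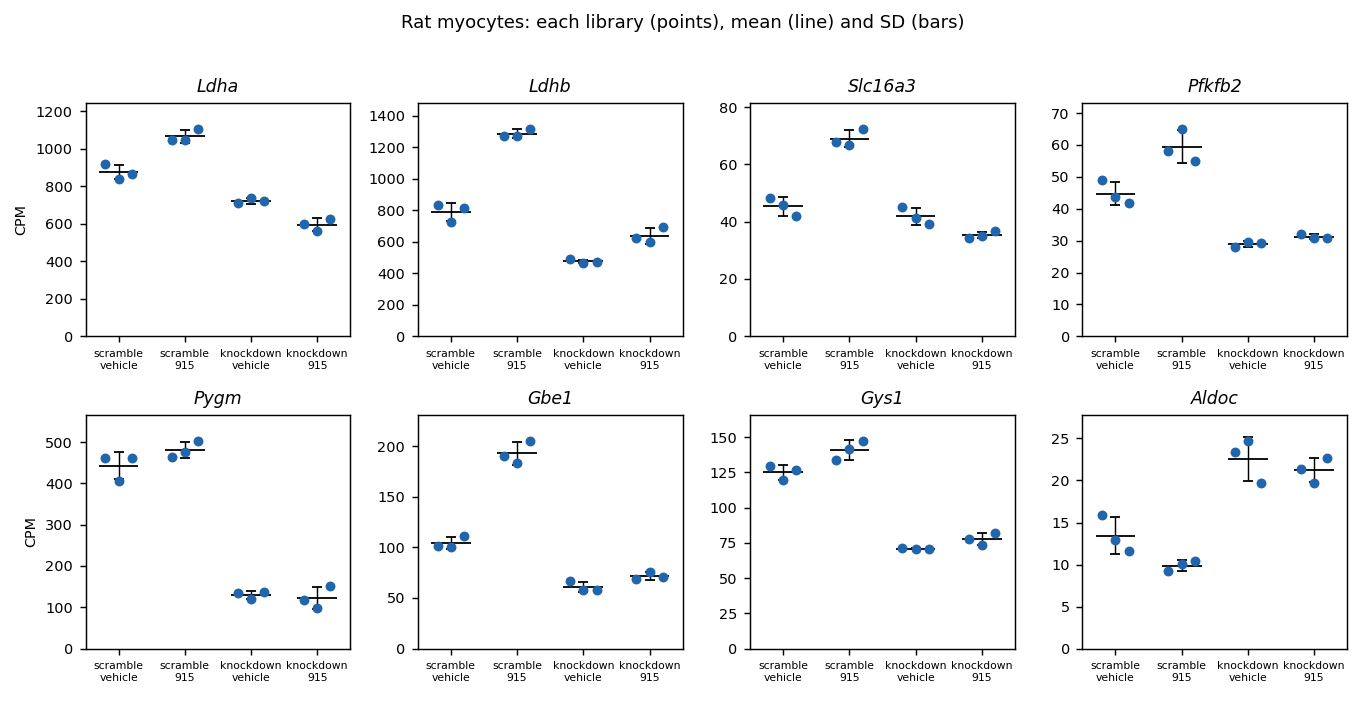
CPM (vertical axes, from 0) of 8 members in each rat library, 3 points a group, with the group mean as a line and the SD as bars. Ldha and Slc16a3 are highest in scramble 915 and lowest in knockdown 915, and Pygm, Gbe1 and Gys1 are low in all 6 knockdown libraries.

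Upper glycolysis runs from glucose phosphate to the triose phosphates. In vehicle the knockdown lowered 4 of its 7 rat entries and raised 1. Pfkm, the muscle phosphofructokinase that commits sugar to glycolysis, was at 167, 136 and 159 CPM in scramble and 103, 105 and 100.3 CPM in knockdown vehicle libraries, a change of -0.59 ± 0.10 (adjusted p 0.000605). Under 915 it was at 126, 128 and 137 CPM and 87.8, 72.5 and 99.2 CPM. The knockdown libraries lay below the scramble libraries in both media, and 915 itself did not pass for Pfkm, with -0.24 in scramble and -0.25 in knockdown cells (adjusted p 0.0578 and 0.0712). Aldoa, which splits fructose bisphosphate, was at 1770.3, 1659 and 1781 CPM in scramble vehicle, 1292, 1244 and 1311 CPM in knockdown vehicle, 2284, 2294 and 2238 CPM in scramble 915 and 1564, 1518 and 1696 CPM in knockdown 915 libraries. It fell with the knockdown in vehicle (-0.44 ± 0.05) and rose with 915 by 0.39 ± 0.05 in scramble and 0.31 ± 0.05 in knockdown cells.

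Aldoc, the brain form of aldolase, moved the other way. It stood at 15.9, 12.9 and 11.6 CPM in scramble vehicle and 23.4, 24.7 and 19.7 CPM in knockdown vehicle libraries, and at 9.19, 10.1 and 10.4 and 21.3, 19.7 and 22.6 CPM under 915. All 6 knockdown libraries lay above all 6 scramble libraries. The knockdown raised it by 0.75 ± 0.12 in vehicle and 1.10 ± 0.13 under 915, and 915 lowered it in scramble cells (-0.45 ± 0.13). That last call was lost without scramble vehicle replicate 1, at -0.31 and an adjusted p of 0.0718. Gpi, which turns glucose phosphate into fructose phosphate, fell with the knockdown (-0.41 ± 0.05 in vehicle and -0.45 ± 0.05 under 915). Pfkl, the liver form, rose with 915 in scramble cells by 0.21 ± 0.08, a call that was lost when any of the 6 libraries was left out (adjusted p 0.0587 to 0.116). Pfkp fell with 915 in knockdown cells (-0.30 ± 0.05) and with the knockdown under 915 (-0.31 ± 0.05). Tpi1, triose phosphate isomerase, was called in all 4 comparisons (-2.47, -1.95, 0.80 and 1.32), but at 5.603 to 8.29 CPM in scramble vehicle and 1.23 to 1.31 CPM in knockdown vehicle libraries it held far fewer reads than its neighbours in the pathway. Reads from near-identical copies can be dropped or split by the counting, so its values are uncertain.

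Lower glycolysis, from the triose phosphates to pyruvate, fell with the knockdown: 7 of 8 entries fell in vehicle and 6 of 8 under 915, and none rose. Pgam2, the muscle phosphoglycerate mutase, showed the largest of these changes in vehicle, from 34.3, 31.1 and 28.7 CPM in scramble vehicle to 21.0, 17.3 and 17.9 CPM in knockdown vehicle libraries (-0.74 ± 0.12, adjusted p 2.62e-05). Under 915 it was at 28.7, 26.7 and 28.1 and 17.8, 14.8 and 21.95 CPM, and 915 did not pass in either siRNA group. Gapdh, which makes the NADH of glycolysis, was at 1054, 1006 and 1071 CPM in scramble vehicle, 888, 874 and 908 CPM in knockdown vehicle, 1312, 1208 and 1267 CPM in scramble 915 and 958, 977 and 1078 CPM in knockdown 915 libraries. It fell with the knockdown (-0.23 ± 0.05) and rose by 0.27 ± 0.05 with 915 in scramble and 0.18 ± 0.05 in knockdown cells, the last lost without knockdown 915 replicate 3 (0.12, adjusted p 0.0618). Gapdh is often used as a reference gene, and here the groups of each of these comparisons did not overlap.

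Pkm, pyruvate kinase, was at 1147, 1118 and 1165 CPM in scramble and 943, 965 and 962 CPM in knockdown vehicle libraries, and at 1133, 1133 and 1111 and 930.4, 945 and 975 CPM under 915. It fell with the knockdown in both media (-0.26 ± 0.04 and -0.24 ± 0.04), while 915 left it at -0.02 and -0.01 with adjusted p of 0.733 and 0.889. Its second rat entry, on chromosome 20 and at 22.6 to 25.9 CPM in scramble vehicle libraries, shares the gene name, passed in no comparison and may hold reads of the first. Eno3, the muscle enolase, was at 44.7, 41.2 and 44.6 CPM in scramble and 34.1, 35.1 and 37.2 CPM in knockdown vehicle libraries (-0.29 ± 0.08, adjusted p 0.0109), and at 40.2, 41.6 and 40.3 and 33.7, 32.7 and 41.0 CPM under 915, where the groups overlapped. Its call was lost without knockdown vehicle replicate 1 (-0.27, adjusted p 0.0568) or scramble vehicle replicate 1 (-0.27, adjusted p 0.0504). Eno1, Pgam1 and Pgk1 fell, with log2 changes of -0.23, -0.28 and -0.46 in vehicle and -0.33, -0.58 and -0.53 under 915. 915 in scramble cells raised 2 of the 8, Gapdh and Pgam1, and in knockdown cells 1, Gapdh.

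The PFKFB enzymes make and break a sugar phosphate that strongly activates phosphofructokinase. Pfkfb2, the heart form (ENSRNOG00000004162, chromosome 13, 47413458 to 47440682), was at 48.9, 43.5 and 41.8 CPM in scramble vehicle and 28.0, 29.5 and 29.3 CPM in knockdown vehicle libraries, and at 58.2, 65.1 and 54.9 and 32.2, 30.9 and 30.8 CPM under 915. All knockdown libraries lay below all scramble libraries. It fell with the knockdown in both media (-0.63 ± 0.08 and -0.93 ± 0.08) and rose by 0.41 ± 0.08 with 915 in scramble cells. In knockdown cells 915 gave 0.11 (adjusted p 0.307), and the difference between these 915 effects did not pass (-0.30, adjusted p 0.158). Pfkfb3, the inducible form, was highest with both treatments, at 60.00, 63.7 and 56.8 CPM, against 46.2 to 50.4 CPM in scramble vehicle libraries. Its share of the family per length was 48.1% in scramble vehicle and 61.7% in knockdown 915 cells. It rose with 915 in knockdown cells (0.25 ± 0.07) and with the knockdown under 915 (0.37 ± 0.07). Pfkfb1 and Pfkfb4 were at only 0.262 to 1.59 and 0.651 to 2.35 CPM in the scramble vehicle libraries and passed in no rat comparison.

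In the pentose phosphate branch, which makes NADPH and ribose, Taldo1 (transaldolase) and Tkt (transketolase) both rose with 915 whatever the siRNA. Taldo1 was at 137, 135 and 145 CPM in scramble vehicle and 200.001, 229 and 203 CPM in scramble 915 libraries, and at 149.7, 148 and 142 and 195, 213 and 216 CPM in the knockdown libraries. The 915 libraries lay above the vehicle libraries in both siRNA groups, by 0.60 ± 0.06 and 0.50 ± 0.06, and the difference between these effects was -0.10 (adjusted p 0.589). The knockdown in vehicle did not pass for Taldo1 (0.08, adjusted p 0.367). Tkt rose by 0.25 ± 0.05 and 0.18 ± 0.05 with 915. With the knockdown under 915 it fell (-0.14 ± 0.05), a call lost without knockdown 915 replicate 2 (-0.12, adjusted p 0.0838) or scramble 915 replicate 1 (-0.12, adjusted p 0.0846).

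Of the 4 genes that build glycogen, 3 fell with the knockdown in vehicle and 4 under 915, while 915 raised 4 in scramble and 2 in knockdown cells. Gbe1 adds the branches of glycogen (ENSRNOG00000051232, chromosome 11, 7210209 to 7485890). It was at 101, 99.9 and 111 CPM in scramble vehicle and 189.9, 184 and 205 CPM in scramble 915 libraries, and at 66.9, 57.4 and 58.0 CPM and 68.6, 75.5 and 70.6 CPM in the matching knockdown libraries. The 4 groups did not overlap. 915 raised Gbe1 by 0.89 ± 0.06 in scramble and by 0.24 ± 0.07 in knockdown cells (adjusted p 4.28e-11 and 0.00721), and the knockdown lowered it in vehicle (-0.78 ± 0.07) and under 915 (-1.43 ± 0.07).

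Gys1, the glycogen synthase of muscle (ENSRNOG00000020812, chromosome 1, 101427195 to 101447092), was at 129, 119 and 126 CPM in scramble vehicle and 71.3, 70.8 and 70.3 CPM in knockdown vehicle libraries, and at 134, 141 and 147 and 77.6, 73.5 and 82.2 CPM under 915. It fell with the knockdown in both media (-0.82 ± 0.06 and -0.86 ± 0.06). Its rise with 915 in scramble cells was 0.17 ± 0.06 and was lost without scramble 915 replicate 3 or scramble vehicle replicate 2 (both 0.14, adjusted p 0.0887 and 0.0800). Gyg1 was at 212, 200.1 and 218 CPM in scramble vehicle, 297, 298 and 335 CPM in scramble 915, 213, 192 and 203 CPM in knockdown vehicle and 229, 199 and 236 CPM in knockdown 915 libraries. Only the scramble 915 libraries stood clear of the others among these 4 groups, at 0.56 ± 0.06 over vehicle, while 0.13 in knockdown cells did not pass (adjusted p 0.132). Ugp2, which makes the activated glucose used for glycogen, gave 0.14 with 915 in scramble cells, 0.19 with 915 in knockdown cells, and -0.25 and -0.20 with the knockdown in vehicle and under 915, all called. The first of these was lost without scramble 915 replicate 1 or 3 or scramble vehicle replicate 2, at adjusted p of 0.0538 to 0.0699 and log2 changes of 0.13 to 0.14.

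Among the glycogen breakdown genes, Pygm encodes the muscle phosphorylase (ENSRNOG00000021090, chromosome 1, 221756286 to 221771143). It was at 462, 405 and 462 CPM in scramble vehicle and 465, 477 and 503 CPM in scramble 915 libraries, and at 135, 119 and 136 CPM and 119, 97.0 and 151 CPM in knockdown vehicle and knockdown 915 libraries. The 6 knockdown libraries lay far below the 6 scramble libraries. Of phosphorylase message per length, Pygm held 75.8% in scramble vehicle and 49.4% in knockdown vehicle cells. Pygb, the brain form, held 21.1% and 43.5%. The knockdown changed Pygm by -1.77 ± 0.14 in vehicle and -1.98 ± 0.14 under 915 (adjusted p 2.33e-05 and 6.45e-06), whereas 915 gave 0.12 and -0.09 (adjusted p 0.533 and 0.68).

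Pygb, the brain phosphorylase, and Phka1, a regulatory subunit of the kinase that switches phosphorylase on, fell with 915. Pygb was at 185, 169 and 176 CPM in scramble vehicle and 124, 130.2 and 131 CPM in scramble 915 libraries, and at 164, 167 and 164 and 116, 98.6 and 116 CPM in the knockdown libraries. It fell with 915 in scramble (-0.46 ± 0.06) and knockdown cells (-0.58 ± 0.06), without overlap in either, and with the knockdown under 915 (-0.22 ± 0.06). Phka1 was at 26.4, 25.3 and 28.4 CPM and 18.04, 18.05 and 19.5 CPM with the scramble siRNA and at 27.2, 27.7 and 26.8 and 23.1, 19.7 and 18.7 CPM with the knockdown, with log2 changes under 915 of -0.53 ± 0.10 and -0.41 ± 0.10. Phkb, another subunit of that kinase, fell with the knockdown under 915 (-0.38 ± 0.08), and Phkg1 and Pygl passed in none of the 5 rat comparisons.

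Ratios of related genes within a library do not depend on library scaling, and 8 pairs were tested for each effect with an exact permutation test stratified by the other factor (2-sided, 32 tests adjusted together, a pseudocount of 0.5 CPM in each gene). In rat, 400 arrangements allowed a smallest p of 0.005. The knockdown effect passed for 6 of the 8 pairs. Pygl relative to Pygm rose by 2.00 on the log2 scale, Pygb relative to Pygm by 1.72, Aldoc relative to Aldoa by 1.37, Pfkl and Pfkp relative to Pfkm by 0.57 and 0.41, and Ldha relative to Ldhb by 0.31, each at the smallest p the permutations allow and an adjusted p of 0.01. The gene that lost ground to its partner was Pygm, Aldoa, Pfkm or Ldhb, and pairs that share Pygm or Pfkm are not separate results. The other pairs, Pgam1 to Pgam2 and Eno1 to Eno3, did not pass (0.24 and -0.04, adjusted p 0.107 and 0.621). The 915 effect passed for 4 pairs at the same p: Ldha relative to Ldhb fell by 0.56, Aldoc relative to Aldoa fell by 0.60, Pygb relative to Pygm fell by 0.53, and Pfkl relative to Pfkm rose by 0.39. As shares of message per length, Ldhb went from 51.9% of LDH in scramble vehicle cells to 59.0% with 915, and from 44.1% to 56.1% in knockdown cells.

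Cell type markers were counted in the same comparisons. Of all genes, 20.4% were called for the knockdown in vehicle (12.7% lower, 7.75% higher) and 33.9% under 915 (17.7% lower, 16.2% higher). For 915 the shares were 42.2% in scramble cells (20.6% lower, 21.5% higher) and 35.7% in knockdown cells (17.6% lower, 18.1% higher). With the knockdown in vehicle, 6 of 8 cardiomyocyte markers fell, their sum going from 15573 to 17163 CPM in scramble libraries to 9282 to 9690 CPM, while 1 of 8 fibroblast markers rose (13720 to 14768 CPM and 13136 to 14544 CPM) and 1 of 7 smooth muscle entries rose and 1 fell. Under 915 all 8 cardiomyocyte markers fell with the knockdown, from 20430 to 21216 CPM to 7406 to 9504 CPM, and 4 of 5 leukocyte markers tested rose. With 915 in scramble cells 6 of 7 smooth muscle entries fell (4640 to 4890 CPM in vehicle and 1712 to 2089 CPM with 915), 5 of 8 fibroblast markers fell and 1 rose (to 7580 to 8343 CPM), and 3 of 8 cardiomyocyte markers rose and 1 fell. In knockdown cells 915 lowered 6 of 7 smooth muscle and 3 of 8 fibroblast markers. The cardiomyocyte calls with 915 in scramble cells were near the share of all genes. So were the fibroblast and smooth muscle calls with the knockdown in vehicle. The part of these marker changes in the members' changes was not tested.

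Other genes of sugar metabolism, 57 of 61 listed entries tested in rat, were counted from a separate list. The knockdown raised 5 and lowered 21 in vehicle, where 20.4% of all genes were called, and raised 8 and lowered 22 under 915, where 33.9% were. Those with the smallest adjusted p in vehicle were Mdh1 and Got1, cytosolic enzymes of the malate-aspartate shuttle (-1.07 and -1.18), Slc2a4, the insulin-responsive glucose carrier (-1.18), and Ppp1r3c, which targets a phosphatase to glycogen (-0.66). 915 raised 22 and lowered 11 in scramble cells, where 42.2% of all genes were called, led by Hk2, a hexokinase (1.24), Slc2a1, the basal glucose carrier (1.10), Epas1, a hypoxia-inducible factor (-0.83), and Ppp1r3c (0.80). In knockdown cells, where 35.7% of all genes were called, it raised 16 and lowered 10, among them Slc2a1 (1.05), Slc2a4 (0.99) and Txnip, which restrains glucose uptake (-0.59). The difference between the 915 effects was called higher for 1 gene, Epas1 (0.50), and lower for 6, where 3.73% of all genes passed, led by Hk2 (-0.89), Pgm1, which interconverts glucose phosphates (-0.54), and Ppp1r3c (-0.39). The median over the 57 was -0.11 for the knockdown in vehicle and 0.13 for 915 in scramble cells, against 0.01 over all genes in both.

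In the authors' deposited table, which holds 3 of these comparisons, 19 members passed an adjusted p of 0.05 for the knockdown in vehicle, 1 higher and 18 lower, and the same 19 were called here. The authors' deposited table called 19 for 915 in scramble cells, of which 18 were called here, and 14 for 915 in knockdown cells, of which 13 were called here. No member called in both had opposite signs.

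In mouse hearts TAC split the set rather than moving it one way. In vehicle-treated hearts 6 members rose and 8 fell of 33 tested (adjusted p below 0.05, edgeR with the set term), where 26.4% of all 14047 genes were called, 13.5% higher and 12.8% lower. In 332-treated hearts 10 rose and 6 fell, where 23.8% of all genes were called, 11.8% higher and 12.1% lower. The medians were 0.07 and 0.09 over the members and within 0.01 of 0 over all genes. Without the set term the calls dropped to 8 in vehicle and 9 in 332-treated hearts. Those lost were Gyg, Tkt, Taldo1, Pfkfb3, Pfkm and Phka1 with vehicle, and Pgam2, Gbe1, Slc16a3, Pygm, Phka1, Gapdh and Pgk1 with 332. In the first set alone the calls were 12 and 10, and the 10 compare sham 332 hearts on lane 3 with TAC 332 hearts on lane 4. The second set alone, with 2 hearts a group, gave 1 call for TAC with 332.

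**Figure D4:**
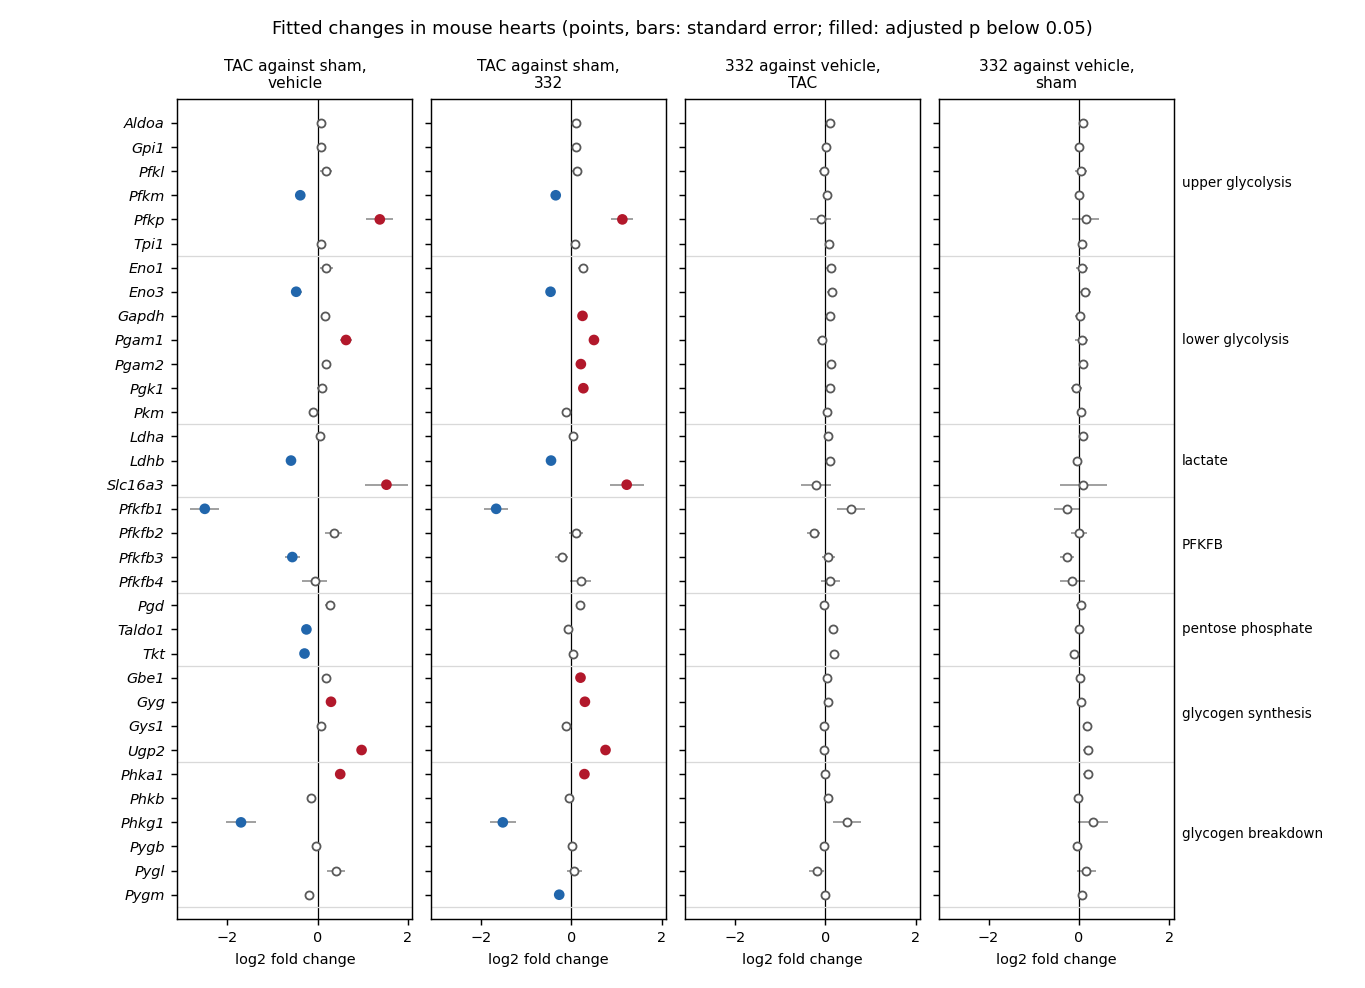
Fitted log2 fold change (horizontal axis) of each tested mouse member in 4 comparisons, by role, with the standard error as a bar; filled points passed an adjusted p of 0.05 (red higher, blue lower). Pfkfb1 and Phkg1 lie farthest to the left and Pfkp and Slc16a3 farthest to the right in both TAC panels, and no point is filled in either 332 panel.

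The largest fall with TAC was in Pfkfb1, a PFKFB form best known from liver and skeletal muscle (ENSMUSG00000025271.14). It was at 15.1, 19.4 and 19.1 CPM in the 3 sham vehicle hearts and 4.86, 1.94, 2.93, 3.33 and 1.39 CPM in the 5 TAC vehicle hearts. With 332 it was at 16.0, 10.2, 18.6, 12.03 and 11.2 CPM in sham and 3.43, 6.67, 3.24, 2.54 and 5.07 CPM in TAC hearts. Every TAC heart lay below every sham heart. The change was -2.50 ± 0.32 with vehicle and -1.66 ± 0.27 with 332 (adjusted p 8.15e-05 and 0.000592), and within the sets it was -2.44 with vehicle in the first, and -1.69 and -1.60 with 332 in the first and second. Its share of PFKFB message per length was 47.8% in sham vehicle and 10.7% in TAC vehicle hearts, and that of Pfkfb2 42.6% and 78.5%. These shares are plain group means without a set term. In counts Pfkfb1 stood below Pfkfb2 in sham vehicle hearts, at means of 17.9 and 68.8 CPM.

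Pfkfb2 itself was at 87.9, 60.3 and 58.1 CPM in sham vehicle, 91.0, 84.4, 70.7, 65.7 and 59.9 CPM in TAC vehicle, 67.9, 81.2, 73.5, 41.0 and 37.0 CPM in sham 332 and 82.7, 81.9, 54.5, 43.2 and 53.7 CPM in TAC 332 hearts. The groups overlapped and TAC did not pass (0.35 and 0.10, adjusted p 0.167 and 0.681). Pfkfb3 fell with TAC in vehicle hearts (-0.56 ± 0.16), a call lost without sham vehicle replicate 2 (-0.46, adjusted p 0.0790), and gave -0.22 with 332 (adjusted p 0.268).

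Phkg1, the catalytic subunit of muscle phosphorylase kinase (ENSMUSG00000025537.13), fell as well. Its levels were 19.0, 24.3 and 27.4 CPM in sham vehicle and 10.3, 7.88, 6.74, 6.72 and 4.42 CPM in TAC vehicle hearts, and 27.4, 26.5, 27.3, 32.1 and 31.1 and 9.01, 13.5, 6.56, 4.45 and 16.5 CPM in sham and TAC hearts with 332. No TAC heart reached the lowest sham heart. The change was -1.69 ± 0.34 and -1.52 ± 0.28 (adjusted p 0.00262 and 0.00184), -1.49 within the first set for vehicle, and -1.45 and -1.58 within the 2 sets for 332. Phka1, the regulatory subunit of the same kinase, rose in vehicle hearts by 0.50 ± 0.11 and in 332 hearts by 0.29 ± 0.09, the second lost without sham 332 replicate 1 or 5 or TAC 332 replicate 1 (0.23 to 0.26, adjusted p 0.0542 to 0.0739). The call in vehicle hearts was lost without the set term (0.36).

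Pygm was at 863, 892 and 859 CPM in sham vehicle, 812, 735, 728, 899.6 and 865 CPM in TAC vehicle, 932, 887, 895, 1058 and 1059 CPM in sham 332 and 831, 817, 686, 736 and 930.2 CPM in TAC 332 hearts. TAC passed for it with 332 (-0.27 ± 0.07, adjusted p 0.00712) and not with vehicle (-0.19 ± 0.08, adjusted p 0.104), and the difference between these did not pass (-0.08, adjusted p 0.858). In the first set alone the change with 332 was -0.21 at an adjusted p of 0.118, and in the second set alone -0.34. Pygb, at 641 to 689 CPM in sham vehicle hearts, gave -0.03 and 0.01.

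Among the rises, Pfkp was the largest with more than 5 CPM in every heart (ENSMUSG00000021196.15). It was at 38.8, 43.6 and 42.3 CPM in sham vehicle and 78.8, 95.3, 139.7, 94.5 and 198 CPM in TAC vehicle hearts, and at 47.8, 48.4, 47.7, 58.6 and 54.4 and 101, 74.6, 127, 178 and 84.9 CPM with 332. Every TAC heart lay above every sham heart, and the TAC hearts spread widely. The change was 1.38 ± 0.30 and 1.13 ± 0.24 (adjusted p 0.00469 and 0.00431), with 1.34 in the first set for vehicle, and 1.08 and 1.22 in the 2 sets for 332. Pfkp is expressed outside muscle too, and 7 of 8 fibroblast markers rose with TAC in vehicle hearts and 6 of 8 with 332, their sum at 540 to 630.3 CPM in sham vehicle, 1180 to 2104 CPM in TAC vehicle, 557 to 637 CPM in sham 332 and 853 to 2456 CPM in TAC 332 hearts. Of all genes, 13.5% were called higher with TAC in vehicle hearts and 11.8% in 332 hearts. The part of the fibroblast markers in the Pfkp rise was not tested.

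Pfkm fell with TAC, at -0.38 ± 0.09 with vehicle and -0.35 ± 0.08 with 332 (adjusted p 0.00431 and 0.00259). It was at 861, 856 and 856 CPM in sham vehicle, 692, 685, 562, 761 and 749 CPM in TAC vehicle, 862, 822, 874, 959 and 962 CPM in sham 332 and 683, 746, 634, 614 and 841 CPM in TAC 332 hearts. The vehicle groups did not overlap, and with 332 TAC replicate 5 reached into the sham range. In the first set alone the changes were -0.40 and -0.30, and without the set term the call with vehicle was lost (-0.31, adjusted p 0.0518). Per length, Pfkm held 79.5% of phosphofructokinase message in sham vehicle and 65.8% in TAC vehicle hearts, and Pfkp 8.56% and 19.2%. No set term entered these shares. Aldoa, Gpi1, Tpi1 and Pfkl did not pass in either TAC comparison, nor did Eno1, Pgd, Pfkfb2, Pfkfb4, Phkb, Pygb, Pygl, Pkm, Ldha and Gys1.

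In lower glycolysis the muscle enolase and the widely expressed mutase moved in opposite directions. Eno3 was at 819.9, 795 and 783 CPM in sham vehicle, 582, 597, 521, 655 and 577 CPM in TAC vehicle, 909, 739, 882, 1044 and 878 CPM in sham 332 and 685, 703, 618, 466 and 756 CPM in TAC 332 hearts. It fell, at -0.47 ± 0.12 with vehicle and -0.46 ± 0.10 with 332 (adjusted p 0.00841 and 0.00325), without overlap for vehicle. Pgam1 was at 38.6, 45.1 and 39.9 CPM in sham vehicle, 59.3, 57.3, 72.0, 54.6 and 85.7 CPM in TAC vehicle, 45.6, 38.3, 46.4, 50.6 and 40.8 CPM in sham 332 and 56.7, 59.2, 67.9, 73.7 and 55.9 CPM in TAC 332 hearts. Every TAC heart lay above every sham heart, at 0.63 ± 0.14 and 0.50 ± 0.12 (adjusted p 0.00365 and 0.00471).

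Gapdh, Pgam2, Pgk1 and Gbe1 were called higher with TAC in 332 hearts, at log2 0.25, 0.21, 0.27 and 0.20, and gave 0.17, 0.19, 0.10 and 0.18 in vehicle hearts, where none passed. The difference between the 332 effects, which is also that between the TAC effects, passed for none of them. Gapdh was at 2998, 2816 and 3012 CPM in sham vehicle, 3141, 3418, 3509, 3619.5 and 4321 CPM in TAC vehicle, 3203, 2857, 2922, 3766 and 3534 CPM in sham 332 and 3324, 3155, 3946, 5082 and 3863 CPM in TAC 332 hearts. Pgam2 was at 296, 281 and 287 CPM, 321, 321, 327, 471 and 425 CPM, 331, 282, 303, 435 and 396 CPM and 349, 318, 424, 428 and 492 CPM in the same order. In every group with both sets, hearts of the second set stood above those of the first on average for both genes. Leaving out a heart ended the Gbe1 call in 8 of 10 cases, the Pgk1 call in 7, the Gapdh call in 6 and the Pgam2 call in 5, with adjusted p up to 0.144, 0.185, 0.129 and 0.116. TAC 332 replicate 3 moved Pgam2 most (0.14 without it) and replicate 4 moved Gapdh and Pgk1 most (0.17 and 0.17), and all 4 calls were lost in the first set alone.

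Pkm did not pass with TAC (-0.11 and -0.11, adjusted p 0.254 and 0.168). It was at 800.5, 773 and 792 CPM in sham vehicle, 725, 716, 744, 822 and 969.6 CPM in TAC vehicle, 823, 806, 809, 991 and 969 CPM in sham 332 and 751, 722, 777, 962 and 864 CPM in TAC 332 hearts, higher in the second set than in the first within each of the 3 groups that hold both. The mouse files also split each gene by transcript. Pkm can splice in either of a pair of exons of the same length, which give the M1 form of adult muscle or the M2 form of growing cells, so these exons are shown from the mouse annotation (GENCODE M21, GRCm38, plus strand). The upstream M1 exon lies at chr9:59675029-59675195 and is carried by transcript Pkm-202, and the downstream M2 exon lies at chr9:59675568-59675734 and is carried by Pkm-201. Capitals mark the 64 of 167 bases that differ.
Pkm-202: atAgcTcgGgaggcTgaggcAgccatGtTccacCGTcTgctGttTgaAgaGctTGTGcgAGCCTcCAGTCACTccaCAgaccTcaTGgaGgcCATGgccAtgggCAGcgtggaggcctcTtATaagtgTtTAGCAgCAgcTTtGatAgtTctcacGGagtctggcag
Pkm-201: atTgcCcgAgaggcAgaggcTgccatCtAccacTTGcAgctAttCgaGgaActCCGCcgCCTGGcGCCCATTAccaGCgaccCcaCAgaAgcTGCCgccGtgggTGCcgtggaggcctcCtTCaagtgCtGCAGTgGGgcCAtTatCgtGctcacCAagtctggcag
Pkm-201 held 45.2% of the gene's estimated counts over all hearts, Pkm-202 41.5% and Pkm-207 12.6%. The first 2 also differ at their ends, with first exons of 282 and 77 bases and last exons of 648 and 462 bases for Pkm-201 and Pkm-202, so their split does not measure this exon choice alone. The share of Pkm-201 was 45.4% ± 1.06 (SD, n = 3) in sham vehicle, 44.2% ± 2.61 (n = 5) in TAC vehicle, 44.3% ± 0.875 (n = 5) in sham 332 and 47.2% ± 3.27 (n = 5) in TAC 332 hearts. Shares of the leading transcript were tested for 17 members and 2 effects with an exact stratified permutation test (2-sided, 34 tests adjusted together), and 0 of 34 passed. The smallest adjusted p was 0.123, for Ugp2, Gapdh and Pygm with TAC, and 6 tests had an unadjusted p below 0.05.

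The mouse lactate genes diverged under TAC. Ldhb was at 1111, 1085 and 1104 CPM in sham vehicle, 779.7, 692, 694, 924 and 779 CPM in TAC vehicle, 1048, 1051, 1112, 1269.9 and 1196 CPM in sham 332 and 769.9, 793, 840.4, 717 and 1027 CPM in TAC 332 hearts. Every TAC heart lay below every sham heart of the same treatment, at -0.59 ± 0.09 and -0.45 ± 0.08 (adjusted p 0.000129 and 0.000355). Within the sets the change was -0.60 for vehicle in the first, and -0.41 and -0.50 for 332. Ldha was at 362, 388 and 402 CPM, 379, 412, 411, 399 and 491 CPM, 407, 405, 430.1, 448 and 439 CPM and 379, 396, 441, 545 and 434 CPM in the same order of groups, with changes of 0.05 and 0.04 (adjusted p 0.699 and 0.745). As plain group means without a set term, the Ldha message per length was 12.6% of LDH in sham vehicle and 20.1% in TAC vehicle hearts.

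Slc16a3 rose by 1.52 ± 0.49 and 1.22 ± 0.38 (adjusted p 0.0245 and 0.0224) from very few reads. It was at 0.392, 0.522 and 0.888 CPM in sham vehicle, 1.89, 1.098, 2.71, 1.501 and 3.79 CPM in TAC vehicle, 0.627, 0.389, 0.971, 0.696 and 1.45 CPM in sham 332 and 1.030, 1.59, 1.54, 4.24 and 1.38 CPM in TAC 332 hearts. The call with vehicle was lost without sham vehicle replicate 1 or 2 or TAC vehicle replicate 3 (1.26 to 1.43, adjusted p 0.0772 to 0.113). That with 332 was lost without sham 332 replicate 2 or 4 or TAC 332 replicate 4 (0.83 to 1.10, adjusted p 0.0588 to 0.135).

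In the glycogen branch Ugp2 gave the smallest adjusted p of any member under TAC (ENSMUSG00000001891.17). It was at 239, 245 and 233 CPM in sham vehicle, 508, 449.7, 482, 345 and 352 CPM in TAC vehicle, 271, 291, 256, 230.5 and 195 CPM in sham 332 and 549, 358, 462, 356 and 373 CPM in TAC 332 hearts. Every TAC heart lay above every sham heart, at 0.97 ± 0.10 and 0.76 ± 0.08 (adjusted p 1.81e-06 and 3.39e-06), with 1.01 in the first set for vehicle, and 0.75 and 0.78 in the 2 sets for 332. Gyg, the glycogen primer, rose by 0.30 ± 0.08 and 0.30 ± 0.06, the call with vehicle being lost without sham vehicle replicate 3 (0.25, adjusted p 0.0534) and without the set term (0.20, adjusted p 0.244). Gys1, at 97.3, 109 and 104 CPM in sham vehicle, 109, 99.5, 106, 117 and 127 CPM in TAC vehicle, 114, 116, 123, 123 and 121 CPM in sham 332 and 116, 111, 102, 112 and 109 CPM in TAC 332 hearts, did not pass (0.07 and -0.11, adjusted p 0.471 and 0.165). In the pentose phosphate branch Tkt and Taldo1 fell in vehicle hearts (-0.29 ± 0.09 and -0.25 ± 0.07) and gave 0.03 and -0.07 with 332. Both calls were lost without the set term, where the changes were -0.08 and -0.05 (adjusted p 0.814 and 0.881), and in the first set alone, at -0.27 and -0.22 (adjusted p 0.0783 and 0.0646). The Tkt call was also lost without sham vehicle replicate 3 (-0.26, adjusted p 0.0899).

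**Figure D5:**
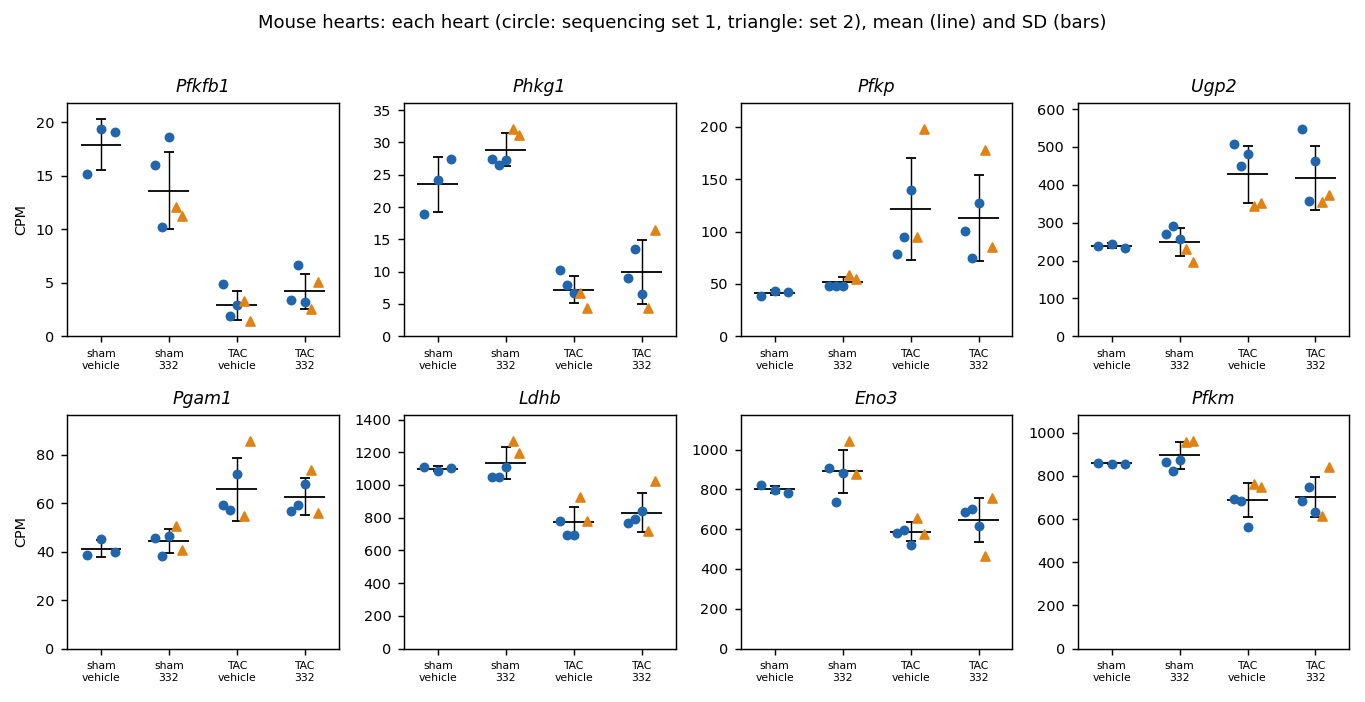
CPM (vertical axes, from 0) of 8 members in each mouse heart, circles for the first sequencing set and triangles for the second, with the group mean as a line and the SD as bars. Pfkfb1 and Phkg1 are lower, and Pfkp, Ugp2 and Pgam1 higher, in all 10 TAC hearts than in all 8 sham hearts.

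The within-heart ratios, tested with the same exact permutation test stratified by treatment and set (2400 arrangements), passed for 6 of 8 pairs under TAC. Pfkp relative to Pfkm rose by 1.52 on the log2 scale, Eno1 relative to Eno3 by 0.69, Ldha relative to Ldhb by 0.56, Pfkl relative to Pfkm by 0.50, Pgam1 relative to Pgam2 by 0.34 and Pygb relative to Pygm by 0.24, with adjusted p of 0.00889 to 0.01. For 3 of them, Pfkp to Pfkm, Eno1 to Eno3 and Ldha to Ldhb, the p of 0.000833 was the smallest the permutations allow. The gene that lost ground to its partner was Pfkm, Eno3, Ldhb, Pgam2 or Pygm, and the pairs that share Pfkm are not separate results. Pgam2 itself did not fall, with fitted TAC changes of 0.19 with vehicle and 0.21 with 332. The 2 TAC vehicle hearts of the second set have no sham vehicle heart beside them and did not enter the ratio test. For the 332 effect 0 of 8 pairs passed, the smallest p being 0.365, and the 2 sham 332 hearts of the second set did not enter. Aldoc stayed below 0.5 CPM in every mouse heart, so its ratio there reflects the pseudocount.

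332 changed no member of the set past the threshold. In TAC hearts 0 of 33 passed in edgeR's quasi-likelihood test, where 0.427% of all genes passed (0.135% higher and 0.292% lower), and 2 had an unadjusted p below 0.05, Taldo1 at 0.18 ± 0.06 and Tkt at 0.20 ± 0.07 (adjusted p 0.151 and 0.235). DESeq2 also called 0. In sham hearts 0 passed, where 0.00712% of all genes passed (0.00712% higher and 0% lower), with 1 at an unadjusted p below 0.05, and DESeq2 called 0. The difference between the 332 effects passed for 0 members, where 0.0641% of all genes passed (0.0214% higher and 0.0427% lower), with 1 at an unadjusted p below 0.05, and DESeq2 called 0. Without the filter on low counts 3 members were called with 332 in TAC hearts, Pfkfb1 at 0.56, Phkg1 at 0.49 and Pfkfb2 at -0.26 (adjusted p 0.00855, 0.00110 and 0.0367), as were 671 genes in all, and Pfkfb1 was called for the difference (0.83, adjusted p 0.00383). In TAC hearts the 95% interval of the log2 change lay within -0.5 to 0.5 for 26 of 33 members and within -1 to 1 for 31, and in sham hearts for 26 and 31. For Ldhb it ran from -0.06 to 0.27 in TAC and from -0.23 to 0.16 in sham hearts, and for Pygm from -0.15 to 0.13 and from -0.10 to 0.25. For Pfkfb1, the member with the largest estimate in TAC hearts (0.56), it ran from -0.10 to 1.23, so a change of that size could not be told from 0 with the filter in place. 915 and 332 were given to different species, by different routes and for different times, so their effects are not compared.

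Some markers passed with TAC in vehicle hearts too, where 26.4% of all genes were called, 13.5% higher and 12.8% lower. With TAC in vehicle hearts 4 of 8 cardiomyocyte markers fell and 1 rose (54405 to 56523 CPM in sham and 45815 to 60353 CPM in TAC hearts), and 2 of 6 leukocyte markers rose. Red cell markers passed in no comparison, but their sum was 1071 to 2687 CPM in TAC 332 and 532 to 821 CPM in TAC vehicle hearts. The part of these in the members' values was not tested. Of 58 other sugar metabolism genes tested in mouse, TAC raised 6 and lowered 9 in vehicle hearts, where 26.4% of all genes were called, and raised 4 and lowered 14 in 332 hearts, where 23.8% were. The share called with vehicle was near that background, and the medians over the 58 were -0.06 and -0.02. In vehicle hearts these included Ppp1r3d, a glycogen-targeting phosphatase subunit (-0.52), and Myc (1.51), and in 332 hearts Slc16a7, a monocarboxylate carrier (-1.26), and Stbd1, a glycogen-binding protein (0.64). With 332 in TAC hearts 1 of the 58 passed, Tfeb, a regulator of lysosome genes (0.39).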

How the data were processed

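RNA was measured by sequencing in 12 libraries of rat neonatal ventricular myocytes and 18 of mouse left ventricle. For rat, the authors deposited raw counts per gene with FPKM per library. Per the submitters' processing notes, their tools were HISAT2 2.0.5, StringTie 1.3.3b and featureCounts 1.5.0-p3, and the build was rn6. The same deposited table holds the authors' DESeq2 1.20.0 log2 fold changes and p-values, per the file headers and those notes. For mouse, the authors deposited estimated counts and TPM for 140790 transcripts per library, made with fastp and Salmon, per the submitters' processing notes. The mouse build is not given in the sources used here.

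Mouse estimated counts and TPM were summed to genes. Of the summed counts, 7.43% were not whole (tolerance 1e-06) and were rounded. Rat counting ignored strand, per the labels, so overlapping genes and near-identical copies are uncertain. Genes were kept by edgeR's filterByExpr at a minimum count of 10, scaled by TMM, and all groups of a species were fitted together in edgeR 4.0.16 (R 4.3.3) with the robust quasi-likelihood test and Benjamini-Hochberg adjustment over all genes at 0.05. The mouse fit held a term for the sequencing set, read from the deposited file names. Ratios of related genes and transcript shares (transcripts with at least 10% of the gene and 10 CPM) were tested in Python 3.11.15 with exact stratified permutation tests. Both kinds of test were checked on simulated data.

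Named members were 10 fixed genes (Ldha, Ldhb, Pfkm, Pkm, Gapdh, Pygm, Pfkfb2, Gys1, Pgam2 and Eno3) and the 6 with the largest called change in each comparison of a pair of groups. Other members are given by change, range and count. From the other sugar genes up to 4 with the smallest adjusted p are named, and some that met this rule are not reported here. Members and lists were chosen with earlier results of these data known. Start windows came from RefSeq (GRCm38.p6) and Pkm exons from GENCODE M21. Replicates that carry the same number were not treated as pairs. Alternatives were RLE scaling, other filters, DESeq2 1.42.0, a replicate block, fits of only the groups compared, no set term, each set alone, pseudocounts of 0.1 and 2 CPM, shares of TPM, a minimum share of 20%, and each library left out.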

Additional observations from a re-analysis of the deposited data

Results flagged for a closer look

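In 99 groups of members by group of 5 hearts, 4 had a single heart far from the other 4 by Dixon's ratio of the gap to the range at its 95% level, where chance gives about 1 in 20, or 5.0 groups. Gbe1 was at 64.9 CPM in TAC 332 replicate 1, above 49.8 to 53.0 CPM in the others. Gpi1 was at 664 CPM and Slc16a3 at 4.24 CPM in TAC 332 replicate 4, above 439 to 503 CPM and 1.030 to 1.59 CPM. Phka1 was at 35.8 CPM in TAC vehicle replicate 4, below 50.5 to 53.3 CPM in the others.

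In rat cells the 915 effect differed between the siRNA groups for 7 members, tested as a contrast of its own (edgeR, knockdown minus scramble). The difference was -0.85 for Slc16a3, -0.65 for Gbe1 and -0.57 for Ldha, and -0.43 for Gyg1, -0.30 for Pgam1, -0.28 for Ldhb and -0.27 for Pfkp. Adjusted p ran from 1.79e-05 for Slc16a3 to 0.0497 for Ldhb.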

How the results depend on the processing

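No called result changed direction under the settings run. Without the low-count filter the members called with 332 were 3 in TAC hearts and 1 for the difference of the 332 effects, and 0 under every other setting run. The cause was not tested. Without the set term TAC called 8 members with vehicle and 9 with 332. TAC with 332 called 10 in the first set alone and 1 in the second, which hold fewer hearts. Transcript shares past 0.05 with TAC were 2 as shares of TPM in place of 0. With each library left out, calls ran from 18 to 19 for the knockdown in vehicle, 24 to 27 under 915, 15 to 18 for 915 in scramble and 13 to 16 in knockdown cells, and 5 to 8 for the difference of the 915 effects. They ran from 12 to 14 for TAC with vehicle, 11 to 16 with 332, and 0 to 0 for all 3 comparisons of 332. Ratios past 0.05 ran from 4 to 5 for 915, 6 to 7 for the knockdown and 6 to 7 for TAC. Transcript shares ran from 0 to 1 for 332 and for TAC, with 1 without sham 332 replicate 3 and, for TAC, also without TAC vehicle replicate 3. DESeq2 ended 1 member call (Gbe1 for TAC with 332) and RLE scaling 2, and fitting only the groups compared ended 5, among them Gapdh, Pgam2, Pgk1 and Gbe1 for TAC with 332. The Ldhb difference was lost with RLE scaling (adjusted p 0.0528) and a minimum count of 50 (0.0512). Depth limits Slc16a3 and Pfkfb1 in mouse and Tpi1, Pfkfb1 and Pfkfb4 in rat.

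With the replicate block, calls were 19 and 25 for the knockdown in vehicle and under 915, 19 and 15 for 915 in scramble and knockdown cells, 7 for their difference, 14 and 14 for TAC, and 0 for each comparison of 332. The block ended the TAC calls of Gapdh (adjusted p 0.0505) and Pgk1 (0.0629) with 332. Deviations of libraries with the same number correlated at -0.053 to 0.040 in rat (18 pairs, 0 over 0.1). In mouse they correlated at -0.081 to 0.334 (24 pairs, median 0.151, 13 over 0.1), against a median of -0.015 (96 pairs, 19 over 0.1) for different numbers. Not every pair was over 0.1 and the labels name no shared source, so no pairing was assumed. In mouse the same number also means the same sequencing set.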
